A study of Homo sapiens with 12 samples.

Results

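The genes described are those for the proteins of the mitochondrial ribosome that carry the symbols MRPL and MRPS followed by a number. They were taken as the protein-coding genes with such a symbol and at least 120 counts summed over the 12 libraries. Of 78 protein-coding genes with such a symbol, 77 passed, among the 58735 gene identifiers of the count table. They were 49 MRPL genes, named for the large subunit, and 28 MRPS genes, named for the small subunit. The gene just outside the limit was MRPS24 with 52 counts, and the gene just inside it was MRPL53 with 442. The annotation also holds a gene named URGCP-MRPS24, which had 1 count in all. How reads shared between genes were counted is not given, so the count of MRPS24 need not reflect its transcript level. All 77 also passed the filter on low counts used for testing, so no member was lost there.

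The cells were of the line OCI-AML2, from a human acute myeloid leukemia with a rearranged KMT2A (MLL) gene, transduced by lentivirus with a guide RNA. The control guide was sgLuc, aimed at luciferase, and the sgUTX_2 and sgUTX_4 guides were aimed at KDM6A, which encodes the histone H3K27 demethylase UTX. Each of these was cultured for 6 days with 1 µM SGC0946, which inhibits DOT1L, the enzyme that methylates histone H3K79, or with DMSO, its solvent. All 6 groups thus carried a lentiviral guide, and each had 2 libraries; whether these were separate cultures was not stated, so every p-value here rests on a spread between libraries that may be technical alone.

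Mitochondria translate the few proteins encoded by their own DNA, all of them parts of the respiratory chain and ATP synthase, on a ribosome of their own. Its ribosomal RNAs are transcribed from mitochondrial DNA, while its proteins are encoded in the nucleus, made in the cytosol and imported. The small subunit decodes the messenger RNA, the large subunit forms the peptide bond and passes the chain to the inner membrane, and acute myeloid leukemia cells are known for their reliance on mitochondrial translation.

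Total counts per library were between 15480493 and 23262141. The KDM6A transcript had 32.1 and 27.9 CPM (counts scaled to the size of the library) in the control DMSO libraries, 14.7 and 15.6 with sgUTX_2 and 49.5 and 46.2 with sgUTX_4, so it was lower with one guide and higher with the other. Transcript level measures neither the edit nor the protein, and groups are called by their guides below. All 9 myeloid markers reached a median of at least 1 CPM. Summed CPM of the 9 myeloid markers was 2235 to 2406 in control DMSO, 12170 to 12380 in control SGC0946, 1732 to 2111 in sgUTX DMSO and 4999 to 6923 in sgUTX SGC0946. LYZ, the lysozyme gene, made up 322 to 390, 9246 to 9453, 244 to 535 and 2890 to 4699 of these, and the 8 others 1913 to 2016, 2928 to 2929, 1488 to 1582 and 2069 to 2223. In the same order of groups, 5 lymphoid markers summed to 5.60 to 7.41, 14.0 to 15.8, 1.05 to 1.46 and 2.61 to 3.25 CPM (MS4A1 at 0), and 3 megakaryocyte markers to 16.9 to 19.99, 13.2 to 13.3, 6.06 to 8.94 and 4.48 to 7.62 CPM (PF4 at 0). The 5 markers of adherent or epithelial cells summed to at most 8.42 CPM. The part of these changes in the results on the ribosomal genes was not tested. In bulk RNA, fewer cells of a type and less RNA per cell cannot be told apart.

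RefSeq promoter windows (build GRCh38.p14, 250 bases before to 50 bases after the annotated start) matched 68 of the 77 genes. The windows of MRPL10, MRPL13, MRPL15, MRPL2, MRPL21, MRPL23, MRPL35, MRPS28 and MRPS36 were not used here. Both strands were searched for 4 strings of letters, none of which contains another: AAGATGGCG (the core of the YY1 motif), CCGGAAGT (ETS factors such as GABPA), CACGTG (the E-box bound by MYC) and GCGCATGCG (NRF1). The YY1 string stood in 12 of the 68 promoters (17.6%), against 4.0% of the 9857 promoters of protein-coding genes tested and 1.75% of all 34943 promoters. The ETS string stood in 11 (16.2%, against 9.04% and 4.11%), the E-box in 6 (8.82%, against 10.1% and 7.23%) and the NRF1 string in 3 (4.41%, against 3.81% and 1.89%). A match describes letters only and is not a measured binding site.

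The 13 windows with the YY1 string, from 12 genes, are shown because the share of this string was the highest relative to other promoters. Each is 30 bases on the gene's strand, with the string in capitals. In MRPL32 and MRPL36 it lies on the opposite strand and reads as the reverse complement, its first base 223 and 36 bases before the annotated start. MRPL52 holds it at 98 and 64 bases before the start, on its own strand. In the other 9 genes it begins between base 7 (MRPL38) and base 36 (MRPL22), counted from 1 at the start.
MRPL22 (chr5:154941093-154941122, plus strand): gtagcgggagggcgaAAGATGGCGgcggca
MRPL32 (chr7:42932144-42932173, plus strand): cccgcgctcCGCCATCTTtacccgaagagc
MRPL36 (chr5:1799853-1799882, minus strand): cccccccgcCGCCATCTTccttcctggcag
MRPL38 (chr17:75904858-75904887, minus strand): gccggagggAAGATGGCGgcgccctggtgg
MRPL42 (chr12:93467513-93467542, plus strand): gattgaaacAAGATGGCGggttcgtggtga
MRPL46 (chr15:88467360-88467389, minus strand): ggagaacgaAAGATGGCGgcgcccgtaagg
MRPL50 (chr9:101398575-101398604, minus strand): atctcatcgAAGATGGCGgcgcgatctgtg
MRPL52 (chr14:22829780-22829809, plus strand): cgatgacccAAGATGGCGgagccgtgattg
MRPL52 (chr14:22829814-22829843, plus strand): cccagattcAAGATGGCGacttcctgcttc
MRPS10 (chr6:42217832-42217861, minus strand): gggaccggcAAGATGGCGgcgcggacagcg
MRPS18A (chr6:43687762-43687791, minus strand): aggtttttgAAGATGGCGgccctcaaggct
MRPS18B (chr6:30617854-30617883, plus strand): gcgtacgtcAAGATGGCGgcgtctgtatta
MRPS30 (chr5:44808951-44808980, plus strand): tcgcgggcaAAGATGGCGgcggccaggtgt

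The 250 bases upstream of the RefSeq start are shown for MRPL45 and MRPS6. Among the members, MRPL45 fell farthest with SGC0946 in control cells, and MRPS6 rose farthest there. The GENCODE annotation, used for gene positions below, begins these genes earlier, MRPL45 at 38297023 and MRPS6 at 34073224. By that annotation the whole MRPS6 stretch lies inside the gene, as does the part of the MRPL45 stretch that holds the E-box. Capitals mark the E-box. The MRPL45 stretch was 66.0% G and C and held the E-box; the MRPS6 stretch was 84.8% G and C, the highest of the 68, which had a median of 60.4%, and held none of the 4 strings.
MRPL45 (chr17:38296918-38297167, plus strand): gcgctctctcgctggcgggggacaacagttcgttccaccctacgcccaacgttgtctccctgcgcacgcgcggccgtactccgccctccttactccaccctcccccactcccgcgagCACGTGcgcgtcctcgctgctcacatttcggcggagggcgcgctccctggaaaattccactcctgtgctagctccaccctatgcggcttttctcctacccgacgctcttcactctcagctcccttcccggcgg
MRPS6 (chr21:34073328-34073577, plus strand): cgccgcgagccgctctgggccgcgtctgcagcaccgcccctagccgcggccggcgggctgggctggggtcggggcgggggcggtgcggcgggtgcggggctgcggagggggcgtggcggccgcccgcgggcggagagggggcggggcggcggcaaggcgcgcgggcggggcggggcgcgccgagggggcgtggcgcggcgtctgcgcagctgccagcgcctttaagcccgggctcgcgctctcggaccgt

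Levels were compared between genes as CPM per kilobase of exonic bases, averaged over the 12 libraries. The most abundant members per length were MRPS34, a small-subunit protein specific to mitochondria, at 114.8, and MRPS18B, 1 of 3 mitochondrial relatives of bacterial S18, at 97.1. They were followed by 4 large-subunit genes, MRPL15 at 74.7, MRPL14 at 70.1, MRPL37 at 67.1 and MRPL3 at 64.0. The lowest were MRPL53 at 1.43, MRPL46 at 1.28 and MRPL38 at 0.770, although their products take part in the same particle. The median was 21.5 for the 49 large-subunit genes, with quartiles of 13.5 and 34.7, and 16.5 for the 28 small-subunit genes, with quartiles of 10.6 and 33.9, so the ranges overlapped almost wholly. Within 25 members at least 10% of the exonic bases also belong to another annotated gene, and how such reads were counted is not given in the sources used here. MRPL12 shared 68.2% of its exonic bases, for example. The 3 lowest members are also among the 25: MRPL53 shared 45.2%, MRPL38 41.1% and MRPL46 11.3%. The levels per length of these genes are therefore uncertain.

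Summed over the 77 genes, TMM-scaled CPM was 4742 and 4894 in control DMSO and 3832 and 3860 in control SGC0946. The sgUTX DMSO libraries had 4936 and 4504 (sgUTX_2) and 5079 and 4736 (sgUTX_4). With SGC0946 they had 4231 and 4611, and 4601 and 4504. The control SGC0946 libraries were the lowest of the 12, while the ranges of the sgUTX DMSO libraries and the control DMSO libraries overlapped. As a share of all counts, with no scaling, the genes took 0.421% and 0.418% of control DMSO, 0.358% and 0.356% of control SGC0946, 0.482% to 0.533% of sgUTX DMSO and 0.452% to 0.483% of sgUTX SGC0946. On that scale every sgUTX library was above every control library. Genes of the cytoplasmic ribosome took 17.7% and 18.9% of counts in control DMSO, against 11.0% to 13.1% in the 10 other libraries. For sgUTX against control in DMSO, the median log2 fold change of all genes was 0.26 by library size, 0.14 by library size without these genes and -0.01 by TMM, and in SGC0946 it was 0.20, 0.17 and 0.01. The count of large-subunit over that of small-subunit genes stayed between 1.47 and 1.56 in all 12 libraries.

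**Figure D1:**
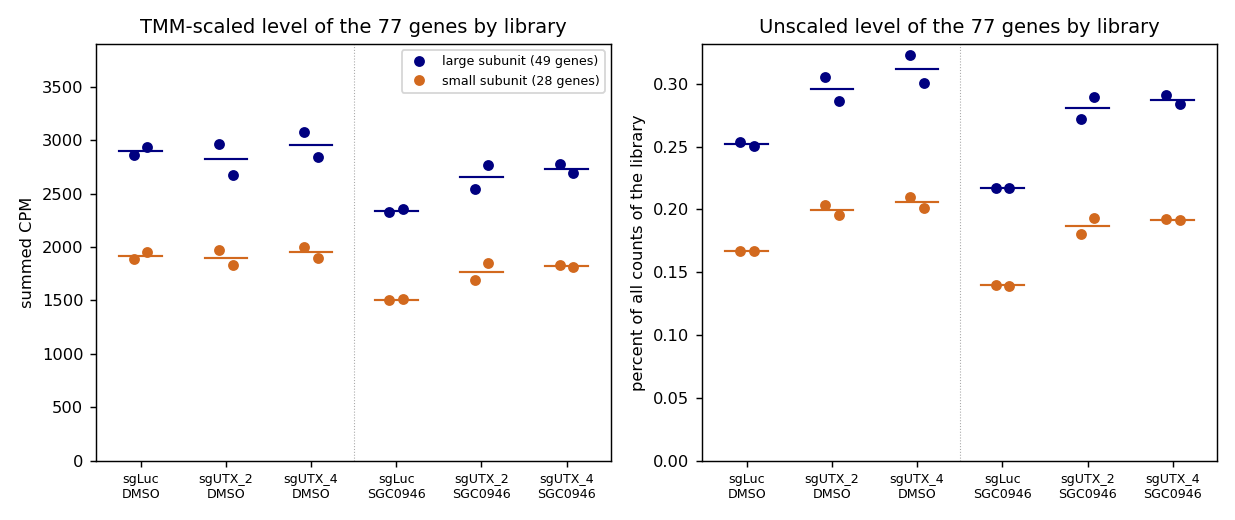
Summed level of the 49 large-subunit (blue) and 28 small-subunit (orange) genes in each library, as TMM-scaled CPM on the left and as percent of all counts on the right; points are libraries and lines the mean of the 2 libraries of a group. Both subunits were lowest in the 2 control SGC0946 libraries, and the ratio between them was 1.47 to 1.56 in every library.

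Transcripts of both subunits fell with the DOT1L inhibitor in control cells. With SGC0946 against DMSO in control cells, 36 of the 77 genes fell and 2 rose, while 24.2% of all 15060 genes tested fell and 24.7% rose (edgeR's quasi-likelihood test, Benjamini-Hochberg adjusted p under 0.05). By subunit, 22 of 49 large-subunit genes and 14 of 28 small-subunit genes fell, and 1 of each rose. The median log2 fold change was -0.24 for the large and -0.29 for the small subunit, against 0.00 over all genes tested; the small-subunit median was -0.19 without control SGC0946 replicate 2. The falls were modest in size: 11 of the 38 called members changed by at least 1.5-fold. The share of all called genes that reached this fold is not given, here or in the comparisons below.

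MRPL45, which lines the exit of the peptide tunnel and ties the ribosome to the inner membrane, fell farthest (ENSG00000278845; GENCODE 29 on GRCh38, chromosome 17, 38297023 to 38323218, plus strand). It had 155 and 155 CPM in control DMSO and 76.1 and 85.1 in control SGC0946, a log2 fold change of -0.94 ± 0.08 (standard error; edgeR adjusted p = 2.21e-09). MRPS30, which carries a small-subunit symbol but sits in the large subunit in structures of the ribosome (ENSG00000112996; chromosome 5, 44808925 to 44820428, plus strand), went from 86.6 and 97.2 to 52.1 and 49.7 CPM (-0.85 ± 0.10, edgeR adjusted p = 2.62e-07). Neither gene's libraries overlapped between the treatments.

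Other members that fell have places across both subunits. MRPL2, a protein next to the peptidyl transferase centre, went from 87.9 and 90.2 to 52.4 and 54.0 CPM (-0.74 ± 0.09, edgeR adjusted p = 5.03e-07). MRPL10, the base of the stalk that receives translation factors, went from 88.4 and 85.0 to 49.9 and 56.9 CPM (-0.70 ± 0.09, edgeR adjusted p = 1e-06). MRPL24, a tunnel-exit protein, went from 49.5 and 55.0 to 34.1 and 32.2 CPM (-0.66 ± 0.11, edgeR adjusted p = 3.85e-05). All of these pairs of libraries were separate. MRPS34, the most abundant member per length, went from 120.5 and 133.5 to 78.6 and 82.3 CPM (-0.66 ± 0.08, edgeR adjusted p = 6.23e-07). The abundant genes MRPS18B (253 and 272 to 168 and 174 CPM) and MRPL37 (179 and 183 to 115 and 122 CPM) fell by 0.62 and 0.61. MRPL3, a core protein of the large subunit, fell by 0.37, from 153 and 161 to 118 and 123 CPM.

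MRPS6 and MRPL35 were the 2 genes that rose. MRPS6, a protein of the small-subunit platform, had 27.1 and 28.5 CPM with DMSO and 40.1 and 39.3 with SGC0946 (0.52 ± 0.11, edgeR adjusted p = 0.000463). Its locus on chromosome 21 (ENSG00000243927; GENCODE 29, 34073224 to 34143034) contains SLC5A3, the myo-inositol transporter gene (34073570 to 34106262, same strand), which itself had 30.9 and 32.3 CPM with DMSO and 71.8 and 66.2 with SGC0946 (1.13 ± 0.10, edgeR adjusted p = 3.11e-09). MRPS6 shares 9.61% of its exonic bases with other genes, and reads of both genes may not be fully separated. MRPL35 had 42.8 and 40.0 CPM with DMSO and 48.9 and 50.5 with SGC0946 (0.26 ± 0.09, edgeR adjusted p = 0.0234), a call lost without control DMSO replicate 2 (0.21, adjusted p = 0.16), control SGC0946 replicate 1 (0.29, 0.058) or control SGC0946 replicate 2 (0.24, 0.116). The stalk protein MRPL12 (20.7 and 16.6 against 18.0 and 17.4 CPM) and MRPL15 (88.5 and 88.3 against 87.2 and 93.9 CPM) are examples of members that did not pass, at -0.08 ± 0.12 and 0.04 ± 0.08.

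Of the promoters with the YY1 string, 7 were among 34 promoters of genes that fell in this comparison and 5 among the 34 of the other members; MRPS30 and MRPS18B were among the former. The E-box stood in 3 of 34 promoters in both sets. The ETS string was in 4 of 34 promoters of genes that fell and in 7 of 34 others.

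**Figure D2:**
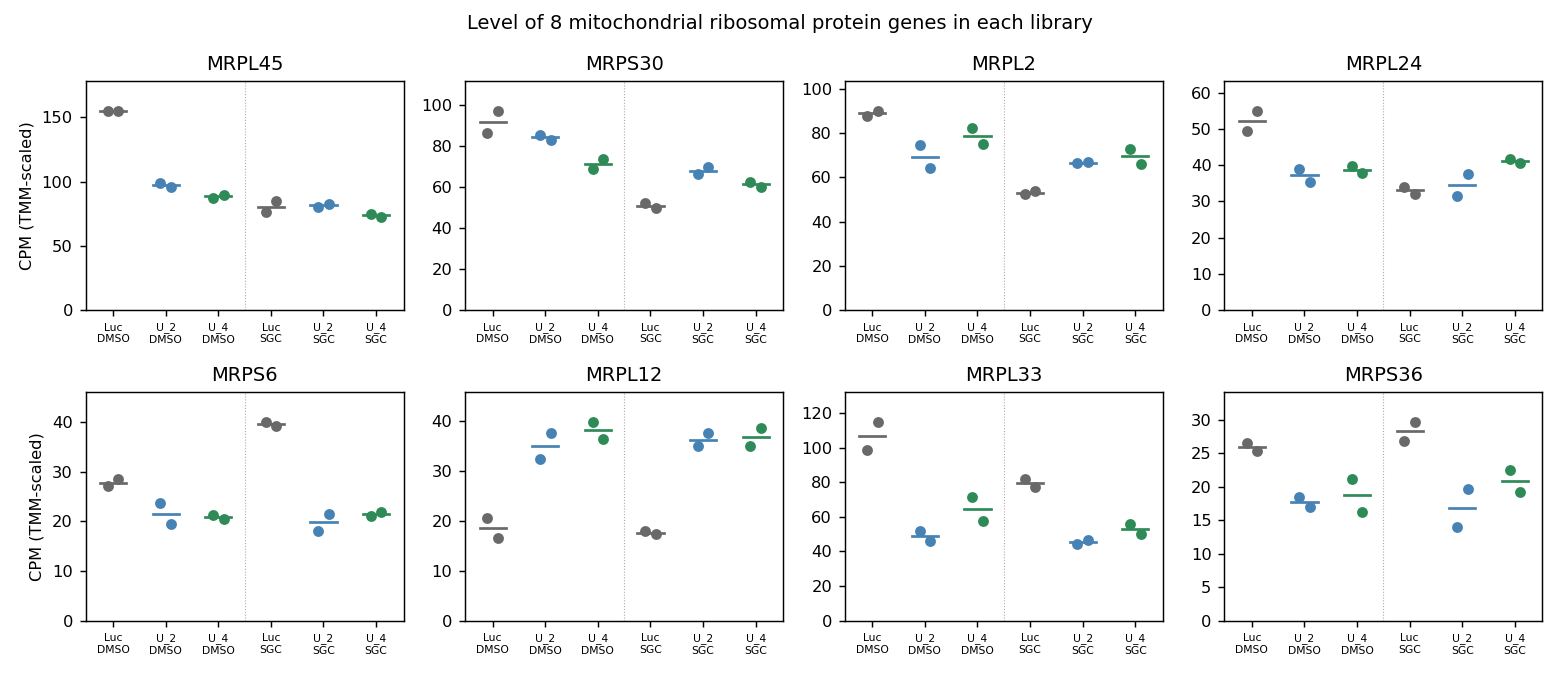
TMM-scaled CPM of 8 mitochondrial ribosomal protein genes in each library (points), with the mean of each pair of libraries (line); Luc, U_2 and U_4 stand for sgLuc, sgUTX_2 and sgUTX_4. MRPL45, MRPS30, MRPL2 and MRPL24 were highest in the control DMSO libraries, MRPS6 was highest in control SGC0946, MRPL12 was higher and MRPL33 and MRPS36 lower in all sgUTX libraries than in all control libraries.

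In sgUTX cells the same inhibitor moved fewer of these genes. With SGC0946 against DMSO there, 15 of 77 fell and 0 rose (background: 16.4% of all genes tested fell and 17.4% rose); at an unadjusted p under 0.05, 22 were lower and 3 higher, and DESeq2 called 15 and 0. The share that fell was thus close to the background. The 15 were 7 of 49 large-subunit genes (14.3%) and 8 of 28 small-subunit genes (28.6%). The medians were -0.10 and -0.06, and 0 of the 15 changed by 1.5-fold. Leaving out sgUTX_2 DMSO replicate 2, the library with the lowest summed level of its group, raised the 15 to 26, and 3, 2 and 1 genes rose without sgUTX_4 DMSO replicate 1, sgUTX_2 SGC0946 replicate 1 and sgUTX_2 SGC0946 replicate 2. Of the 36 genes that fell in control cells and the 15 that fell in sgUTX cells, comparisons with no library in common, 13 fell in both, that is 36.1% and 86.7% of each list. The same overlap among all genes tested is not given, so it is open whether that of the members is particular to them.

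MRPL1, part of the flexible arm near the exit for transfer RNA, fell most in sgUTX cells. Its values were 62.5, 51.2, 62.1 and 54.1 CPM with DMSO and 37.7, 41.4, 40.1 and 39.8 with SGC0946 (-0.53 ± 0.07, edgeR adjusted p = 5.02e-06), with no overlap. In control cells it went from 39.1 and 48.2 to 31.6 and 33.1 CPM (-0.43 ± 0.11, edgeR adjusted p = 0.00236), a call lost without control DMSO replicate 2 (-0.28, adjusted p = 0.0862). MRPL58, a peptidyl-tRNA hydrolase that frees stalled chains, went in sgUTX cells from 37.2, 33.8, 44.4 and 44.7 to 31.0, 32.9, 29.2 and 31.7 CPM (-0.36 ± 0.08, edgeR adjusted p = 0.00153). These ranges were also separate. MRPS23 and MRPS18A fell by 0.31 each, and MRPS10, MRPL9 and MRPS34 by 0.28 each. MRPL45 in sgUTX cells went from 99.3, 95.6, 87.6 and 89.7 to 80.2, 82.8, 74.7 and 72.6 CPM (-0.26 ± 0.06, edgeR adjusted p = 0.00101).

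The difference between the responses was tested directly as an interaction, sgUTX response minus control response. It passed the test above 0 for 24 members and below 0 for 3, while 18.3% of all genes tested passed above and 16.5% below. The 24 were 14 of 49 large-subunit genes (28.6%) and 10 of 28 small-subunit genes (35.7%). The medians over all members of each subunit were 0.17 and 0.22, against 0.02 over all genes tested. Without sgUTX_2 DMSO replicate 2 the 3 became 5, and without control SGC0946 replicate 2 they became 1. Since the control response is a term of this difference, the same libraries stand behind both counts.

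MRPL45 had the difference with the smallest p among the named members, 0.68 ± 0.10 (edgeR adjusted p = 1.26e-05), followed by MRPS18B at 0.55 ± 0.09 (3.67e-05), MRPL37 at 0.52 ± 0.09 (6.39e-05) and MRPL2 at 0.62 ± 0.11 (0.000139). MRPL24 had 39.0, 35.5, 39.7 and 37.9 CPM in sgUTX DMSO and 31.4, 37.5, 41.9 and 40.5 in sgUTX SGC0946, overlapping ranges, and its difference was 0.65 ± 0.14 (edgeR adjusted p = 0.000734). MRPS30 had 85.6, 83.1, 68.8 and 73.7 CPM in sgUTX DMSO and 66.2, 69.6, 62.6 and 59.9 in sgUTX SGC0946, with a difference of 0.58 ± 0.12 (edgeR adjusted p = 0.000632). In MRPL45, MRPS18B, MRPL2, MRPL24 and MRPS30 the sgUTX DMSO libraries lay below the control DMSO libraries, and the response in sgUTX cells was the smaller one. For MRPL2 and MRPS30 the sign of that DMSO difference depended on scaling, as given below. In MRPL37 the sgUTX DMSO libraries (179 to 201 CPM) overlapped the control DMSO libraries (179 and 183). In MRPL3, MRPL4 and MRPS34, also above 0 in the difference, they lay above them. The part of the DMSO level in the difference was not tested.

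MRPS17, an RNA-binding core protein of the small subunit, had the largest estimate, 0.72 ± 0.27 (edgeR adjusted p = 0.0407), from low levels: 6.66 and 5.53 CPM in control DMSO, 5.49 and 3.83 in control SGC0946, 4.12 to 4.96 in sgUTX DMSO and 4.68 to 6.51 in sgUTX SGC0946. The control ranges were apart only by the gap from 5.49 to 5.53, and the sgUTX ranges overlapped. Its call was lost without control DMSO replicate 1 (0.58, adjusted p = 0.198), control SGC0946 replicate 2 (0.48, 0.254), sgUTX_2 DMSO replicate 2 (0.67, 0.0635), sgUTX_4 DMSO replicate 2 (0.74, 0.0519), sgUTX_2 SGC0946 replicate 1 (0.66, 0.0738), sgUTX_4 SGC0946 replicate 1 (0.70, 0.0569) or sgUTX_4 SGC0946 replicate 2 (0.71, 0.0622). On the other side, MRPS6 stayed at 19.4 to 23.7 CPM in sgUTX DMSO and 18.1 to 21.9 in sgUTX SGC0946 while it rose in control cells, a difference of -0.56 ± 0.14 (edgeR adjusted p = 0.00268). MRPL35 (-0.36 ± 0.11, edgeR adjusted p = 0.0167) and MRPS10 (-0.35 ± 0.10, 0.0113) were the others below 0. Both calls were lost without control DMSO replicate 2 (-0.31, adjusted p = 0.0962, and -0.34, 0.0518) and without control SGC0946 replicate 2 (-0.33, 0.0714, and -0.32, 0.0632).

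**Figure D3:**
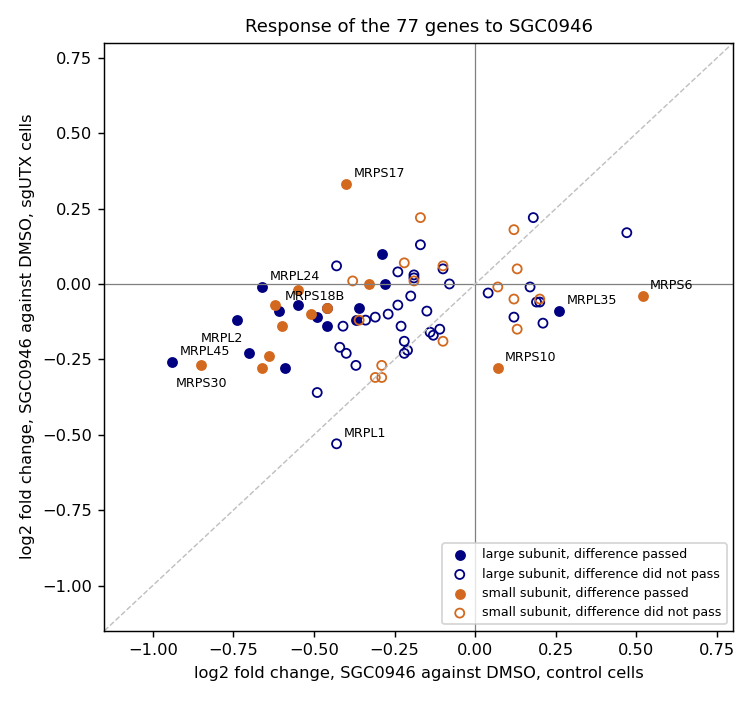
Log2 fold change with SGC0946 of the 77 genes in control cells (horizontal axis) and in sgUTX cells (vertical axis), which share no library; filled points passed the test of the difference, and the dashed line marks equal responses. Most points lie left of 0 and above the dashed line, with MRPL45 and MRPS30 at the far left and MRPS6 at the far right.

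Between sgUTX and control cells in DMSO, members were called in both directions, at shares near those of all genes. Of the 77, 27 were higher (35.1%) and 18 lower (23.4%) in sgUTX cells, against a background of 28.7% higher and 32.3% lower among all genes tested. The large subunit had 15 higher and 10 lower (30.6% and 20.4% of 49). The small subunit had 12 higher and 8 lower (42.9% and 28.6% of 28), and the medians were 0.05 and 0.00. The balance depends on scaling: with library size only, 49 were higher and 5 lower, the median of all genes tested moved from -0.01 to 0.26, and the share of all calls that were higher moved from 47.1% to 66.7%. Relative to the median of all genes, the members' median was 0.03 under both scalings.

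The genes farthest up were MRPL12, the stalk protein that contacts translation factors (ENSG00000262814; chromosome 17, 81703357 to 81707526, plus strand), MRPS28 and MRPL46. MRPL12 had 20.7 and 16.6 CPM in control DMSO and 32.5, 37.7, 40.0 and 36.4 in sgUTX DMSO (0.97 ± 0.10, edgeR adjusted p = 2.94e-08). MRPS28 had 13.8 and 14.8 against 28.7, 22.1, 31.9 and 26.0 CPM (0.92 ± 0.15, edgeR adjusted p = 4.3e-05), and MRPL46, a protein of the central protuberance, 5.54 and 5.75 against 11.2, 9.56, 11.1 and 9.83 CPM (0.88 ± 0.15, edgeR adjusted p = 2.35e-05). In all 3 the 4 sgUTX libraries lay above both control libraries. MRPS11, which stands head to head with MRPL46 (34 bases between their starts on chromosome 15), had 17.3 and 22.6 against 29.8, 29.9, 35.3 and 33.4 CPM (0.69 ± 0.12, edgeR adjusted p = 1.85e-05). MRPS18C, a small-subunit relative of bacterial S18, rose by 0.64 ± 0.11, from 14.0 and 12.5 to 18.9 to 21.9 CPM. MRPL38 was called at 0.70 ± 0.29 (edgeR adjusted p = 0.0424) from 1.99 and 2.04 against 2.65, 3.59, 3.09 and 3.78 CPM. That call was lost without control DMSO replicate 1 (0.68, adjusted p = 0.168) or 2 (0.72, 0.131), and without sgUTX_2 DMSO replicate 2 (0.65, 0.0733) or sgUTX_4 DMSO replicate 2 (0.63, 0.0885).

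Of these 6 genes, MRPL12, MRPS28, MRPL46, MRPL38 and MRPS18C share at least 10% of their exonic bases with another gene. Among the 25 members that do so, 13 were higher and 4 lower, and among the 52 others 14 were higher and 14 lower. AC139530.2, which overlaps MRPL12, was at 0 CPM in all 12 libraries, and AC013489.1, which overlaps MRPL46, in every DMSO library. AC036214.3 (overlapping MRPS28) had 1 count in all, and AC087289.3 (overlapping MRPL38) at most 0.276 CPM. ABRAXAS1, which overlaps MRPS18C, had 93.3 and 101 CPM in control DMSO and 40.8 to 55.9 in sgUTX DMSO.

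Among the genes that were lower, MRPL33, a small protein of the large subunit (ENSG00000243147; chromosome 2, 27771717 to 27988087, plus strand), had 98.7 and 115.2 CPM in control DMSO and 52.1, 46.3, 71.7 and 57.6 in sgUTX DMSO (-0.91 ± 0.15, edgeR adjusted p = 0.000233). MRPL33 shares 21.1% of its exonic bases with BABAM2, which itself had 29.6 and 32.9 CPM in control DMSO and 11.3 to 13.6 in sgUTX DMSO. MRPL45 followed, with 155 and 155 CPM against 99.3, 95.6, 87.6 and 89.7 (-0.74 ± 0.07, edgeR adjusted p = 3.06e-09), then MRPS18B with 253 and 272 against 171, 159, 179 and 173 CPM (-0.62 ± 0.06, edgeR adjusted p = 6.2e-09). The ranges of these 3 genes did not overlap. MRPL10 was lower by 0.57 (88.4 and 85.0 against 53.9 to 60.4 CPM), MRPS33 by 0.54 (27.2 and 23.2 against 16.3 to 19.6 CPM) and MRPS36 by 0.51 (26.5 and 25.4 against 16.2 to 21.2 CPM). MRPS36, despite its symbol, is now known as a subunit of the oxoglutarate dehydrogenase complex. Its call was lost without control DMSO replicate 1 (-0.48, adjusted p = 0.0543).

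In SGC0946 the balance was one-sided. The sgUTX cells had 38 members above control cells and 4 below, against 27.7% and 29.3% of all genes tested. Among the 49 large-subunit genes 20 were higher (40.8%) and 1 lower, among the 28 small-subunit genes 18 higher (64.3%) and 3 lower. The medians were 0.18 and 0.28, against 0.01 over all genes tested, and 13 of the 42 called members differed 1.5-fold or more. Scaled by library size alone, 59 members were higher and 3 lower (median of all genes 0.20, and 65% instead of 48.6% of all calls higher). This comparison uses the control SGC0946 libraries, which also stand in the control response, and no library of the DMSO comparison. Of the 27 genes higher in DMSO and the 38 higher in SGC0946, 22 were the same, 81.5% and 57.9% of each list. Of the 18 and 4 lower ones, 3 were the same. These overlaps, too, stand without those of all genes tested.

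The stalk protein MRPL12 was higher here too. It had 18.0 and 17.4 CPM in control SGC0946 and 35.0, 37.7, 35.1 and 38.7 in sgUTX SGC0946 (1.05 ± 0.10, edgeR adjusted p = 8.02e-09). MRPL4, which lines the peptide tunnel, had 43.3 and 44.8 against 70.0, 73.4, 73.9 and 76.1 CPM (0.74 ± 0.07, edgeR adjusted p = 2.56e-09). MRPL46 was at 4.41 and 5.32 against 8.33 to 9.32 CPM (0.88 ± 0.15). None of these ranges overlapped. Of the small-subunit proteins specific to mitochondria, MRPS26 had 37.4 and 34.9 against 60.3, 63.6, 64.5 and 62.5 CPM (0.80 ± 0.07, edgeR adjusted p = 3.66e-09) and MRPS25 41.2 and 35.7 against 61.1, 61.8, 69.0 and 73.4 CPM (0.79 ± 0.08, edgeR adjusted p = 3.59e-08). MRPL38 had the largest estimate, 1.19 ± 0.30 (edgeR adjusted p = 0.00155), from 0.906 and 2.05 against 3.39, 3.08, 4.48 and 2.81 CPM, with 15 counts in control SGC0946 replicate 1. It was 0.73 (adjusted p = 0.0786) without control SGC0946 replicate 1.

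The 4 genes lower in sgUTX cells with SGC0946 were MRPS6, MRPL33, MRPS36 and MRPS31. MRPS6 had 40.1 and 39.3 CPM in control and 18.1, 21.4, 21.1 and 21.9 in sgUTX libraries (-0.94 ± 0.09, edgeR adjusted p = 9.47e-09), while SLC5A3 in the same locus differed by -0.84 ± 0.08 (edgeR adjusted p = 7.12e-09). MRPL33 had 82.1 and 77.6 against 44.4, 46.5, 56.0 and 50.4 CPM (-0.70 ± 0.15) and MRPS36 26.9 and 29.7 against 14.0, 19.7, 22.4 and 19.2 CPM (-0.59 ± 0.14). All 3 were separate between the genotypes. BABAM2, which overlaps MRPL33, had 15.8 and 16.0 CPM in control and 11.4 to 13.6 in sgUTX libraries (-0.34 ± 0.11). MRPS31 was lower by 0.23 ± 0.08 (32.9 and 33.8 against 27.0 to 30.7 CPM, edgeR adjusted p = 0.0252), a call lost without control SGC0946 replicate 1 (-0.25, adjusted p = 0.0775) or 2 (-0.21, 0.149), or without sgUTX_2 SGC0946 replicate 1 (-0.21, 0.0511) or 2 (-0.20, 0.0647).

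**Figure D4:**
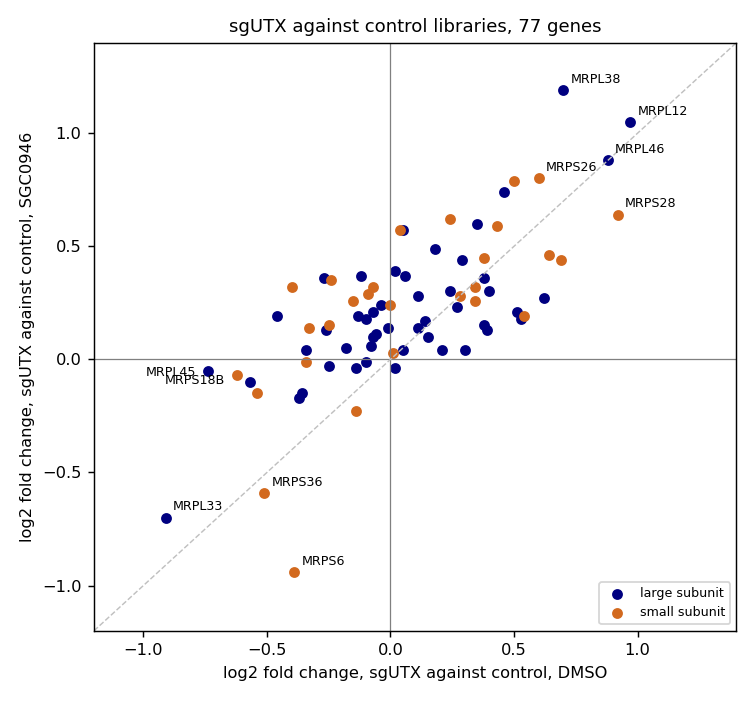
Log2 fold change of sgUTX against control for the 77 genes in DMSO (horizontal axis) and in SGC0946 (vertical axis), comparisons with no library in common; blue points are large-subunit and orange points small-subunit genes, and the dashed line marks equal values. MRPL12, MRPL46 and MRPS28 were high in both, MRPL33, MRPS36 and MRPS6 low in both, and MRPL45 and MRPS18B stood at -0.74 and -0.62 in DMSO and at -0.05 and -0.07 in SGC0946.

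The guides gave similar counts when each was set against sgLuc, whose libraries both comparisons share. In DMSO, sgUTX_2 had 23 members higher and 18 lower (background 28.2% and 32.2%) and sgUTX_4 31 higher and 17 lower (28.5% and 31.2%). In SGC0946, sgUTX_2 had 33 higher and 4 lower (27.3% and 29.1%) and sgUTX_4 43 higher and 4 lower (27.3% and 29.0%). The 17 fell to 11 without control DMSO replicate 2 and to 9 without sgUTX_4 DMSO replicate 2, and the 4 lower with sgUTX_4 in SGC0946 to 2 without control SGC0946 replicate 2 or sgUTX_4 SGC0946 replicate 2. Set directly against each other in DMSO, sgUTX_4 was above sgUTX_2 for 3 members and below for 1 (1.72% and 1.77% of all genes tested).

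Those 4 were MRPS14, at 37.7 and 32.0 CPM with sgUTX_4 and 28.5 and 23.9 with sgUTX_2 (0.41 ± 0.10, edgeR adjusted p = 0.0142), MRPL33 (0.40 ± 0.10, 0.0234), MRPL58 (0.33 ± 0.09, 0.0251) and MRPS30 (-0.24 ± 0.07, 0.0499). Without sgUTX_2 DMSO replicate 2 or without sgUTX_4 DMSO replicate 1, 0 members were above, and MRPS14 had an adjusted p of 0.232 and 0.458, MRPL33 of 0.205 and 0.528 and MRPL58 of 0.227 and 0.226. MRPL58 was also lost without sgUTX_4 DMSO replicate 2 (0.32, 0.0802), and leaving out sgUTX_2 DMSO replicate 1 raised the 3 to 7. The count below was 0 without any 1 of 9 libraries, all but the control DMSO libraries and sgUTX_4 DMSO replicate 2. In SGC0946, 0 members differed between the guides by edgeR or DESeq2, while at an unadjusted p under 0.05 there were 9 above and 4 below; 1.61% and 1.4% of all genes tested were called. Without sgUTX_2 SGC0946 replicate 2, 2 members were above.

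The MRPS18 relatives, which occupy different places in the ribosome, did not share a pattern. MRPS18B was highest in control DMSO and at 156 to 179 CPM in all other libraries. MRPS18C followed the guide, at 12.5 to 14.5 CPM in the 4 control libraries and 18.9 to 21.9 in the 8 sgUTX libraries. MRPS18A, a large-subunit protein by structure, was at 33.7 and 29.8 CPM in control DMSO, 25.5 and 25.8 in control SGC0946, 37.2 to 40.8 in sgUTX DMSO and 28.8 to 33.1 in sgUTX SGC0946, and fell by 0.31 with SGC0946 in both genotypes. The call in control cells was lost without control DMSO replicate 1 (-0.21, adjusted p = 0.179), control SGC0946 replicate 1 (-0.30, 0.0682) or 2 (-0.32, 0.0549). MRPS18A shares 47.0% and MRPS18C 40.2% of its exonic bases with genes on the opposite strand.

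Placing MRPS30 and MRPS18A in the large subunit and MRPS36 in neither changed the shares of each subunit little. For SGC0946 in control cells, 24 of 51 large-subunit and 12 of 25 small-subunit genes then fell, with medians of -0.27 and -0.29. For sgUTX against control in SGC0946, 22 of 51 (43.1%) and 16 of 25 (64.0%) were higher, with medians of 0.18 and 0.29. The share called higher was thus larger in the small subunit, as it was by symbol (40.8% and 64.3%). The large and small subunit were not compared by a test, since genes of one complex are not independent.

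A trait the choice of genes did not use is their place beside other genes. Of the 77, 29 (37.7%) had a protein-coding gene starting on the opposite strand within 1000 bases, against 2196 of 12465 protein-coding genes tested (17.6%). Of 27 such neighbours tested, 5 were higher and 8 lower with SGC0946 in control cells, against 24.7% and 24.2% of all genes tested. Their median was -0.17, and their ribosomal partners had a median of -0.21. Across these pairs of genes, all from the same libraries and not independent, Pearson's r between the fold changes of partners was -0.22. The pairs included MRPL52 (-0.40), whose neighbour SLC7A7, an amino acid transporter gene 59 bases away, rose by 3.89.

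Other genes of the mitochondrial translation system were listed for comparison. Of all genes tested, 24.2% fell and 24.7% rose with SGC0946 in control cells. In sgUTX against control cells, 28.7% were higher and 32.3% lower in DMSO, and 27.7% and 29.3% in SGC0946. Of 5 ribosome proteins with other symbols, 3 fell with SGC0946 in control cells: DAP3, the GTP-binding protein of the small subunit, by 0.72 (183 and 209 to 113 and 125 CPM), GADD45GIP1 by 0.65 and PTCD3 by 0.61. In sgUTX against control cells in SGC0946, which uses the same control SGC0946 libraries, they were higher by 0.25, 0.50 and 0.61. Of 26 assembly and ribosomal RNA modification factors, 11 fell and 4 rose in control cells, led by the pseudouridine synthase RPUSD4 (-0.99 ± 0.10), NOA1 (-0.95 ± 0.13) and METTL15 (-0.80 ± 0.10). In sgUTX against control cells 14 were higher and 4 lower in DMSO and 19 higher and 1 lower in SGC0946, with RBFA, a small-subunit assembly factor, at 1.22 ± 0.11 in the latter.

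Of 15 translation factors, 7 fell and 2 rose with SGC0946 in control cells (46.7% and 13.3%, against 24.2% and 24.7% of all genes tested). LRPPRC, which stabilises mitochondrial messenger RNAs, went from 263 and 257 to 160 and 171 CPM (-0.65 ± 0.09), and TUFM, the elongation factor Tu, from 310 and 313 to 229 and 231 (-0.44 ± 0.06). In SGC0946 TUFM had 397 to 410 CPM in sgUTX libraries, 0.82 ± 0.06 above control. In DMSO 6 factors were higher and 3 lower in sgUTX cells, against 28.7% and 32.3% of all genes tested. GFM1, the elongation factor G1, was farthest up at 1.10 ± 0.08.

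RNAs made from mitochondrial DNA, which include the ribosomal RNAs that these proteins bind, were mostly called in the opposite direction. Of 15, 11 rose with SGC0946 in control cells and 11 in sgUTX cells, against 24.7% and 17.4% of all genes tested. In control cells 2 of the 15 had estimates below 0, the lowest at -1.3, and 0 were called lower. The fold changes of the ribosomal RNAs with SGC0946 are not given here. In sgUTX against control cells 11 (DMSO) and 14 (SGC0946) were lower, against 32.3% and 29.3% of all genes tested. MT-CO1 had 3601 and 3902 CPM in control DMSO and 5751 and 5459 in control SGC0946 (0.58 ± 0.08). The 12S ribosomal RNA MT-RNR1 differed between the control DMSO libraries themselves, 479 and 2051 CPM, and was at 144 to 160 in sgUTX DMSO. The genes of the cytoplasmic ribosome fell with SGC0946 in control cells in 71 of 84 cases, and 74 of 84 were lower in sgUTX than in control cells in DMSO (4 higher). Their median there was -0.91, against 0.02 for the mitochondrial ribosomal genes. With SGC0946 in sgUTX cells, 0 of the 84 fell and 3 rose. The difference of the responses was above 0 for 66 of the 84 (78.6%, median 0.53), and below 0 for 0. For the mitochondrial ribosomal genes it was above 0 for 24 of 77 (31.2%, median 0.17), so the smaller response in sgUTX cells was not particular to them. The 38 proteasome genes had 8 higher and 9 lower with SGC0946 in control cells (21.1% and 23.7%), near the 24.7% and 24.2% of all genes tested. With SGC0946 in sgUTX cells 0 were higher and 11 lower (28.9%, median -0.09), against 0 and 15 of the members (19.5%, median -0.09). In sgUTX against control in SGC0946, 14 were higher and 3 lower (36.8% and 7.89%), so calls mostly in 1 direction there were not particular to the members. In the difference 4 were above 0 and 12 below.

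Of 9 genes for regulators of nuclear mitochondrial genes, 3 rose and 1, MYC, fell with SGC0946 in control cells, with a median of 0.15. The shares of all genes tested were 24.7% and 24.2%. MYC had 766 and 804 CPM in control DMSO, 342 and 351 in control SGC0946, 636 to 687 in sgUTX DMSO and 582 to 632 in sgUTX SGC0946. Its log2 fold change with SGC0946 was -1.18 ± 0.07 in control cells (edgeR adjusted p = 3.39e-12) and -0.11 ± 0.05 in sgUTX cells (0.0911); its part in the levels of the ribosomal genes was not tested. In DMSO 8 of the 9 were higher in sgUTX cells, against 28.7% of all genes tested. PPARGC1B, a coactivator of mitochondrial genes, was at 1.34 ± 0.12, PPRC1 at 1.04 ± 0.10 and ESRRA at 0.99 ± 0.09. YY1 itself had 171 and 175 CPM in control DMSO and 190 and 192 in control SGC0946 (0.15, not called).

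**Figure D5:**
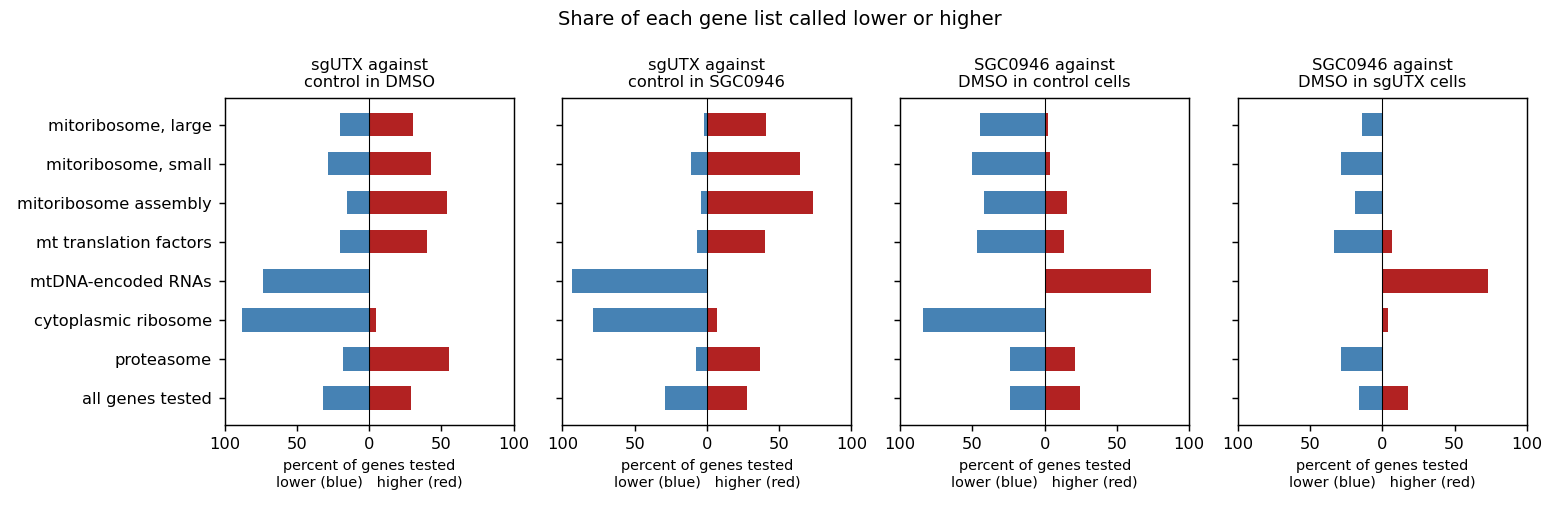
Percent of the tested genes of each list called lower (blue, to the left) or higher (red, to the right) in the 4 comparisons, with all genes tested in the lowest row. In control cells with SGC0946 the bars of the mitochondrial ribosome (44.9% of 49 and 50.0% of 28 genes lower) and of the cytoplasmic ribosome point left, and those of RNAs from mitochondrial DNA point right.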

How the data were processed

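RNA of 12 libraries was measured as counts per gene. The deposited table holds raw read counts for 58735 identifiers, which equal those of GENCODE 29 (GRCh38). Total RNA went into the libraries, and both ends of fragments were read over 150 bases, per the labels' protocols. The aligner STAR 2.5.1b and build hg19 stand in the submitters' processing notes, so the build behind the counts is uncertain. How reads were counted, and whether by strand, is not given in the sources used here, so overlapping genes cannot be told apart. Gene positions are those of GENCODE 29, and promoter sequences and their starts are from RefSeq (GRCh38.p14), so the start of a gene can differ between them.

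Groups came from each sample's labels. Total counts per library were 15480493 to 23262141, and no library repeated another (chi-square per gene within a group 2.85 to 6.29, where sampling alone gives about 1). The test was edgeR's two-sided quasi-likelihood F-test (edgeR 4.0.16 in R 4.3.3, robust, with TMM scaling and filterByExpr), with all 12 libraries in 4 groups, sgUTX or control in either treatment (8 residual degrees of freedom). Both UTX guides counted as replicates of 1 group. For single guides, 6 groups were fitted, leaving 6 residual degrees of freedom. The Benjamini-Hochberg adjustment ran over 15060 genes, with calls at under 0.05. Fold changes are on the log2 scale with standard errors, and CPM values are scaled by TMM factors.

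The members, lists and rules were chosen with earlier results of these data known, so no list was tested as a set. Named in each comparison were the 6 called members farthest in each direction, up to 8 called members moving against the majority, the 6 called members farthest on each side in the response difference, the 6 highest and 3 lowest per length, the MRPS18 relatives, MRPS30 and MRPS36, and the called members differing most between the guides. From other lists, genes were named from the 3 called genes farthest from 0, and some (such as TUFM, MT-CO1, MT-RNR1 and YY1), like the single-gene values for SLC5A3, SLC7A7 and BABAM2, were chosen after their values were seen. Alternatives were RLE size factors, library size only, no filter, DESeq2 1.42.0, 6 groups, a replicate block, leaving out each library, leaving out members sharing 10% or more of their exonic bases, and subunits by structure. The fits were also run on simulated counts in which few genes were changed, in random directions, so those runs do not bear on the scaling.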

Additional observations from a re-analysis of the deposited data

Results flagged for a closer look

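The response to SGC0946 differed between sgUTX and control cells in 15 named members by the test of the difference itself (sgUTX response minus control response, log2, edgeR adjusted p under 0.05 over all genes tested). Above 0 were MRPS17 (0.72), MRPL45 (0.68), MRPL24 (0.65), MRPL2 (0.62), MRPS30 (0.58), MRPS18B (0.55), MRPL37 (0.52), MRPL10 (0.47), MRPS34 (0.38), MRPL9 (0.31), MRPL4 (0.27) and MRPL3 (0.26). Below 0 were MRPS6 (-0.56), MRPL35 (-0.36) and MRPS10 (-0.35). The adjusted p was 1.26e-05 for MRPL45, 0.0458 for MRPL9 and 0.0295 for MRPL3. MRPL9 lost its call without any 1 of 9 libraries (adjusted p 0.0514 to 0.196), MRPL3 without any 1 of 6 (0.0522 to 0.146), and MRPL4 without control DMSO replicate 2 (0.122) or either control SGC0946 library (0.111 and 0.0505). MRPS34 lost it without control DMSO replicate 2 (0.31, 0.0521).

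Among 72 groups of 4 libraries, 2 held a library far from the others, where chance gives about 1 in 20. MRPL2 had 72.9 CPM in sgUTX_4 SGC0946 replicate 1, against 66.1 to 66.8 in the other sgUTX SGC0946 libraries. MRPL35 had 48.4 CPM in sgUTX_2 SGC0946 replicate 1, against 57.9 to 59.5 in the others.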

How the results depend on the processing

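With library size only, sgUTX against control in DMSO had 49 members higher and 5 lower (medians 0.33 large, 0.28 small), and in SGC0946 59 higher (0.36 and 0.47). SGC0946 in control cells then had 5 higher and 28 lower (-0.15 and -0.20), against 2 and 36 with TMM. The difference of responses had 17 above and 5 below 0 (0.08 and 0.13), against 24 and 3 with TMM. The share of all calls that were higher moved from 50.6% to 60.9% in control cells and from 52.6% to 40.6% in the difference. Relative to the median of all genes the members' median stayed within 0.01 of its value in each. Single guides against sgLuc then had 47 higher and 6 lower (sgUTX_2, DMSO), 52 and 5 (sgUTX_4, DMSO), 61 higher (sgUTX_2, SGC0946) and 2 lower (sgUTX_4, SGC0946), and 0 members were lower with sgUTX_4 than sgUTX_2 in DMSO. The sign turned for MRPL2 (0.01) and MRPS30 (0.04) in sgUTX against control in DMSO, for MRPL58 (0.02, sgUTX_2) and for MRPS14 (0.22, sgUTX_4). With library size without cytoplasmic ribosomal genes, added after seeing the data, 10 were lower in DMSO (medians 0.21 and 0.16, 59.3% of calls higher), and the medians in SGC0946 were 0.33 and 0.44 (62.9%). With no filter the DMSO medians were 0.13 and 0.08, 3 rose in sgUTX cells, and 17 were above and 6 below 0 in the difference. With RLE size factors 21 were above 0 in the difference, with DESeq2 18 and in the fit of 6 groups 29. In 6 groups 3 rose in sgUTX cells. Among the 52 members sharing under 10%, 14 were higher in DMSO (small-subunit median -0.11) and 22 in SGC0946 (0.21), and the small-subunit difference was 0.28. With DESeq2, 0 were lower with sgUTX_4 than sgUTX_2 in DMSO. Where the cause is not the smaller number of genes, it was not tested.

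Leaving out 1 library gave 1 to 2 higher and a small-subunit median of -0.29 to -0.19 for SGC0946 in control cells, 0 to 3 higher and 13 to 26 lower in sgUTX cells, and 1 to 5 below 0 in the difference. It gave 9 to 20 lower for sgUTX_4 in DMSO and 2 to 5 in SGC0946, and sgUTX_4 against sgUTX_2 had 0 to 7 higher and 0 to 1 lower in DMSO and 0 to 2 higher in SGC0946. Over named members, 2213 of these values kept their call and direction, 85 lost the call and 18 gained it. These values include the omission of libraries outside the groups compared, which changes only the shared spread, the filter and the scaling. The share kept therefore overstates how well calls stand the loss of a library that enters them. Replicate numbers did not pair the samples (correlation of deviations -0.167 to 0.108 over 15 pairs of groups, 1 of them over 0.1); with the replicate block 26 were higher and 17 lower in DMSO, 0 members were lower with sgUTX_4 than sgUTX_2, and 2 named calls were lost. Depth limits MRPL38 and MRPL53, with at least 15 and 16 counts a library.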
